A study of Caenorhabditis elegans with 4 samples.

Results

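The regions described here are the binding regions of NHR-237 on chromosome V of Caenorhabditis elegans in embryos. They are all lines of the deposited combined list whose chromosome is V, which gives 226 of 1679 regions, or 13.5% of that list. The same chromosome held 1324 of the 8326 regions of the ChIP replicate 1 list (15.9%) and 2082 of the 12698 regions of the ChIP replicate 2 list (16.4%). The rule takes the regions by chromosome name and uses no score or peak number, but chromosome V was picked with earlier results of these data known.

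The study mapped binding of NHR-237 by chromatin immunoprecipitation and sequencing (ChIP-seq), in which DNA bound to a protein is recovered with an antibody and sequenced. It has 4 samples, namely 2 anti-GFP ChIP samples and 2 samples of input DNA, all from embryos of strain OP228 grown at 20 °C, with males and hermaphrodites mixed. Every sample carries the mutation unc119(ed3) and the transgene wgIs228, in which nhr-237 is joined to TY1, EGFP and FLAG tags and which also bears unc119. The transgene was introduced by bombardment, so binding was measured for a tagged protein made from an added copy, in a single strain, and no sample without the tag was analysed here. The labels do not say whether the replicates came from separate cultures, and the spread between them may be technical. For each region the authors gave its position together with a score and a peak number. The sources used here do not state what the peak number means. It was taken as the authors' order, a smaller number as a better place, and it is not a signal level. The score does not always fall as the peak number rises. On V the combined peak numbers 1138 and 1256 had scores of 2.66 and 2.70. The lists hold no read counts, so depth is unknown, and all intervals below are exact 95% intervals, which cover only the counting error of regions. Regions are not replicates, and tests over them treat neighbouring regions as independent.

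Nuclear hormone receptors are transcription factors that bind short DNA elements through a zinc finger domain, and many of them are controlled by small lipophilic ligands. The family is greatly expanded in nematodes, and most of its worm members have no known ligand. Chromosome V is the longest chromosome of the worm. Worm autosomes have a centre rich in conserved, broadly expressed genes and arms with more recombination, more repeats and more rapidly evolving gene families. Chromosome V is known for large families of chemoreceptor and nuclear receptor genes, many of them on its arms. The gene nhr-237 itself (CELE_Y46H3D.6) is listed on chromosome V in the RefSeq gene table for assembly WBcel235. The regions are given on WormBase WS220, so neither genes nor sequence were assigned to them here, and members are named by position.

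The first comparison asked how the members were divided between the centre and the arms of the chromosome. Binding regions were densest at the centre of V and thin on both arms. The chromosome was taken to run between the outermost bases listed for it in the 3 lists, 2004 to 20913131 or 20.9 Mb, and cut into 3 equal parts of 6.97 Mb. The middle part, from 6972380 to 13942755, held 111 regions, the left part 59 and the right part 56. In regions per Mb this was 15.9 in the middle (95% interval 13.1 to 19.2), 8.46 on the left (6.44 to 10.9) and 8.03 on the right (6.07 to 10.4). The intervals of the outer parts overlapped each other and lay below that of the middle. The left and right counts did not differ beyond counting error (ratio 1.05, 95% interval 0.718 to 1.55; two-sided exact binomial test, adjusted p = 0.897).

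**Figure D1:**
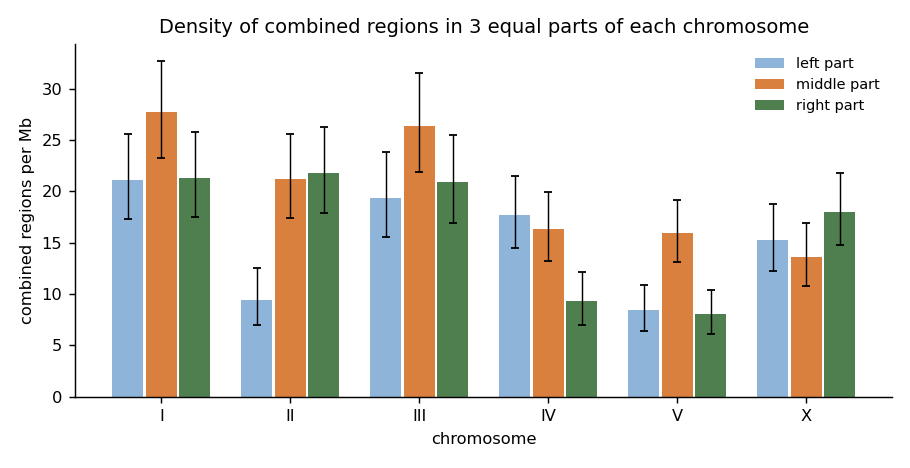
Combined regions per Mb (bars) in the left, middle and right of 3 equal parts of each chromosome, with exact 95% Poisson intervals as error bars. On V the middle bar stands at 15.9 and both outer bars near 8, while every other chromosome has at least 1 outer bar above 17.

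Chromosome V was then set against the other autosomes. Both its centre and its arms held fewer regions per Mb, and the ratio was lower on the arms. In the middle parts the density was 15.9 per Mb on V and 22.6 on chromosomes I to IV together, a ratio of 0.705 (0.568 to 0.870; two-sided exact binomial test given the lengths, adjusted p = 0.00269). In the outer parts it was 8.25 per Mb on V and 17.4 on I to IV, a ratio of 0.474 (0.386 to 0.578; exact binomial test, adjusted p = 5.93e-15). The members on V counted 115 in the outer parts, against 714 on the other autosomes. Single chromosomes were spread around these pooled values. The middle of IV held 16.3 regions per Mb (13.2 to 20.0), close to that of V, whereas those of I, II and III held 27.7, 21.2 and 26.4. Low arms were also seen elsewhere, but on 1 side only: the left part of II held 9.43 per Mb (6.95 to 12.5) and the right part of IV 9.29 (6.98 to 12.1). The other arm of II held 21.8 per Mb and that of IV 17.7. The X chromosome had no dense centre, with 13.6 regions per Mb in its middle part and 15.3 and 18 on its sides.

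The middle part of V held 49.1% of its regions (42.4 to 55.8) and that of I to IV 39.3%. The odds ratio was 1.49 (1.11 to 2.00; two-sided Fisher's exact test, adjusted p = 0.0181). This difference in share is the same contrast as the lower density ratio on the arms. It was less firm than the differences in density between V and chromosomes I to IV. When the best 1679 regions of 1 replicate list stood in for the combined list, the share was 46.3% for replicate 1 (Fisher's exact test, adjusted p = 0.212) and 46.6% for replicate 2 (Fisher's exact test, adjusted p = 0.239). The call also ended when regions within 5 kb were merged, at 47.8% (Fisher's exact test, adjusted p = 0.0961), and among combined regions with peak numbers up to 839, at 47.2% (Fisher's exact test, adjusted p = 0.199). It was already known that V has the highest middle share among the chromosomes of the combined list, so the test is not independent of that choice. Single autosomes had 37.7% on IV, 39.5% on I, 39.5% on III and 40.4% on II, and X had 29.0%.

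The full replicate lists showed the same order of centre over arms on V, in a weaker form. In replicate 1 the middle part held 523 regions, the left part 456 and the right part 345, or 75.03, 65.4 and 49.5 per Mb. In replicate 2 the counts were 833, 663 and 586, or 120, 95.1 and 84.1 per Mb. The middle share was thus 39.5% (36.9 to 42.2) in replicate 1 and 40.01% (37.9 to 42.2) in replicate 2, below the 49.1% of the combined list. Chromosome II had 40.6% in replicate 1, above V, and 39.9% in replicate 2, close to V. The lead of V in the combined list was thus not seen in replicate 1 and was very small in replicate 2. In regions per Mb, V was below chromosomes I to IV together in both lists and in both kinds of part. The density ratio in the middle was 0.757 in replicate 1 (exact binomial test, adjusted p = 2.26e-08) and 0.823 in replicate 2 (exact binomial test, adjusted p = 1.72e-06). In the outer parts it was 0.691 (exact binomial test, adjusted p = 1.18e-21) and 0.700 (exact binomial test, adjusted p = 8.75e-31). Single autosomes came close to V in places. In replicate 2 the middle part of IV held 122 per Mb, against 120 on V. The left part of V was above the right part of IV in replicate 1 (63.5 per Mb) and above the left part of II in replicate 2 (92.7 per Mb). In the full replicate 1 list, but not in the combined list, the left arm of V held more regions than its right arm (ratio 1.32, 1.15 to 1.52; exact binomial test, adjusted p = 0.000347). The same ratio was 1.13 in replicate 2 (1.01 to 1.27; exact binomial test, adjusted p = 0.0551).

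**Figure D2:**
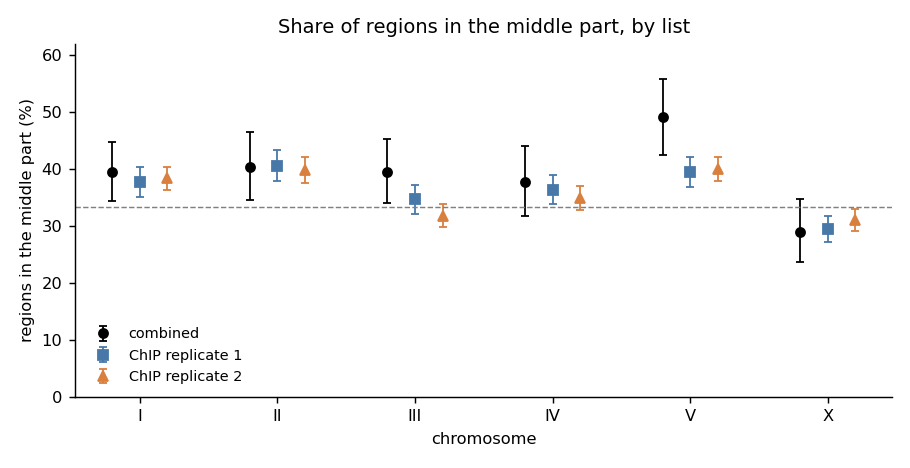
Percent of regions in the middle part of each chromosome in the combined list and in the full list of each ChIP replicate, with exact 95% binomial intervals; the dashed line marks an equal share. The combined list puts 49.1% of the V regions there, and the replicate lists 39.5% and 40.01%.

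The centre of V stood out more among regions with small peak numbers in the replicate lists. In replicate 1, 48.0% of the V regions in the best 25% of the list lay in the middle part. The share was 42.3%, 36.1% and 33.1% in the following steps of 25%. In replicate 2 it was 44.5%, 42.9%, 34.9% and 38.6%. In the combined list the 4 steps gave 44.0%, 50.0%, 54.2% and 47.5%, with no order by rank. The members of the middle part did not have better peak numbers within the combined list. Their median was 958, against 811 on the left and 917 on the right. In the replicate lists, better ranks in the middle part were not particular to V. In replicate 2 the middle part had the smallest median on V (6189), I (5767), II (5499), III (5020) and IV (5831). In replicate 1 it did on V (3829), I (3476), III (3417.5) and IV (3998.5). On II its 4079 was above the 3959 of the right part. On X the middle part had the largest median in both lists (4362 in replicate 1, 6963.5 in replicate 2). These differences were not tested.

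At a finer scale, regions were counted in bins of 1 Mb. Every bin of V held combined regions. The 20 full bins held 3 to 24, with a median of 10.5. The fullest was the bin from 11 to 12 Mb, with 24 combined regions, and this bin was also the fullest of the full bins in replicate 1, with 97, and in replicate 2, with 129. The neighbouring bin from 10 to 11 Mb held 20. The stretch from 10 to 12 Mb, picked after the counts were seen, thus held 44 members or 19.5% of the combined list's V regions, at 22.0 per Mb. It held 13.7% of the V regions of replicate 1 and 11.9% of those of replicate 2. The thinnest stretch lay on the right arm from 16 to 19 Mb, also picked after the counts were seen. Its 3 bins held 3, 3 and 4 members, or 3.33 per Mb. The replicate lists had 34.3 and 63.0 regions per Mb there, against 63.3 and 99.6 over all of V. On the left arm, the single bin from 3 to 4 Mb also held 3 members. Towards the right end the counts rose again, to 7 and 9 members in the last bins, of which the final one is shorter than 1 Mb. That final bin held 138 regions in replicate 2, more than the 129 of the fullest full bin, and 73 in replicate 1. By this count the fullest bin of V in replicate 2 lay at the right end, not at the centre.

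**Figure D3:**
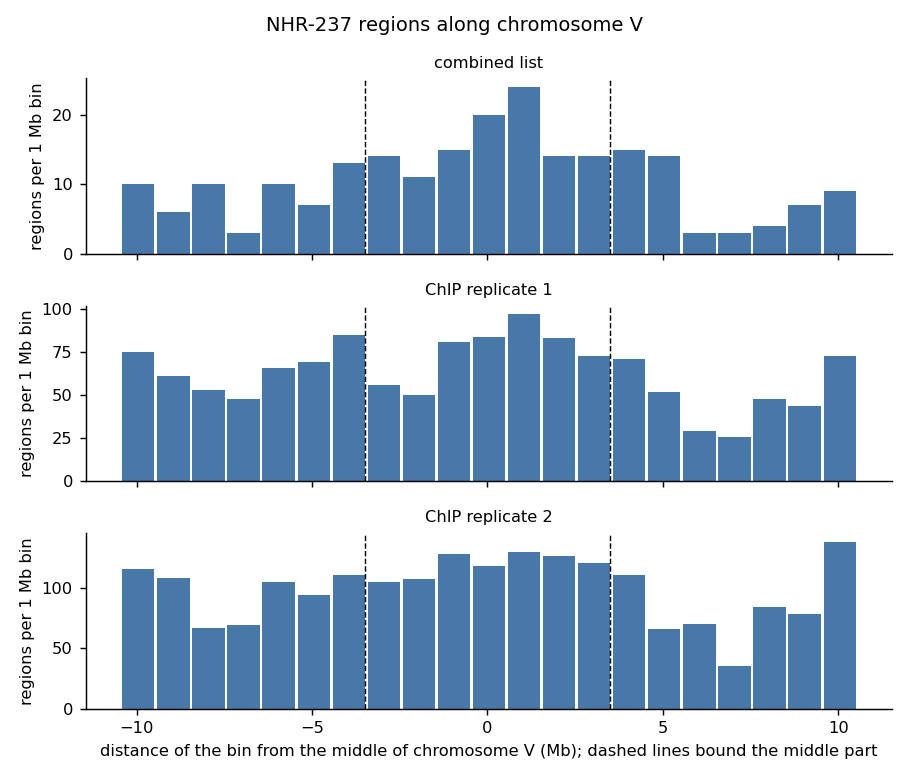
Number of regions per 1 Mb bin along chromosome V in the combined list and in each ChIP replicate, by distance of the bin from the middle of the chromosome; dashed lines bound the middle part, and the rightmost bin is shorter than 1 Mb. The highest combined bar, with 24 regions, lies next to the chromosome's middle, and the lowest bars of the right arm hold 3, 3 and 4.

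The spacing of the members followed this pattern. The median distance between neighbouring midpoints was 46.7 kb on V, the longest among the 6 chromosomes, which otherwise ranged from 27.6 kb on I to 40.4 kb on X. In the middle part of V the median was 37.8 kb, against 84.0 kb on the left and 54.9 kb on the right. Of the 225 neighbouring pairs, 69 or 30.7% were more than 100 kb apart, a share that was 24.7% on IV, 22.5% on X and 10.2% to 16.2% on I, II and III. Gaps of more than 300 kb without a combined region numbered 15 on V and took up 32.3% of its length. Chromosome IV had 6 such gaps (15.7%), II had 3 (12.6%), I and X had 1 each, and III had none. These values are descriptions, and the differences in spacing were not tested.

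The 5 widest gaps lay on the arms, 3 on the right and 2 on the left. The widest ran from 16965945 to 17857828, or 892 kb. It was followed by 2694860 to 3315221 (620 kb), 186074 to 773214 (587 kb), 16401956 to 16965723 (564 kb) and 15881199 to 16355793 (475 kb). A single combined region separates the first of these from the fourth. Together the 5 gaps span 3.14 Mb, or 15% of the chromosome. They were not empty in the replicate lists. Replicate 1 had 95 regions inside them, or 30.3 per Mb, and replicate 2 had 165, or 52.6 per Mb, so both lists were thinner there than over the whole of V. Of these, 39 of the replicate 1 regions (41.1%) overlapped a replicate 2 region, beside 55.0% over all of V and 59.1% of the nuclear list. In the other direction 42 of the replicate 2 regions (25.5%) overlapped a replicate 1 region, beside 36.6% over all of V and 40.8% of the nuclear list. These differences were not tested. The gaps were picked as stretches without a combined region, and the combined list was made from the same samples. A lower density and a lower overlap inside the gaps are thus in part built in. The best peak number inside a gap was 997 in replicate 1, in the gap that begins at 15881199. It was 979 in replicate 2, in the gap that begins at 16401956. In the widest gap the best were 2356 and 3672.

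**Figure D4:**
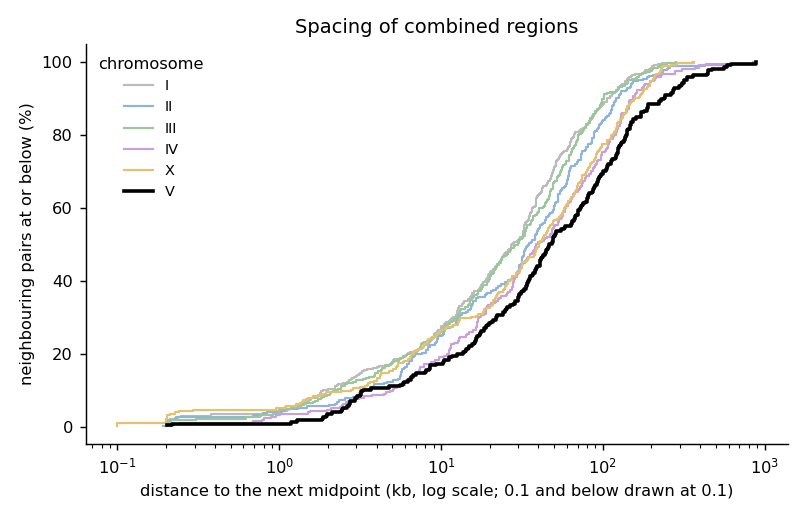
Cumulative percent of neighbouring pairs of combined regions (vertical axis) by the distance between their midpoints in kb (log scale), 1 line per chromosome. The line for V is the lowest at 100 kb, where 30.7% of its pairs are farther apart, and it reaches 50% at 46.7 kb.

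Close groups of members were few. Regions were counted as a cluster when each midpoint lay at most 5 kb from the next. On V, 46 regions or 20.4% (15.3 to 26.2) fell in 21 clusters, of which 3 held 3 or more regions. The share was 18.7% on IV, 21.7% on II, 27.5% on X, 30.1% on III and 31.8% on I. Such a share depends on density, and the differences were not tested. Of the 21 clusters, 12 lay in the middle part, 6 on the left and 3 on the right.

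The largest cluster held 4 regions between 11078322 and 11084065, inside the fullest bin. Its members start at 11078322, 11080264, 11082396 and 11083576, and each is 490 bp wide. Their combined peak numbers were 1444, 988, 1099 and 941, so none was among the better ones of the list. All of them had a counterpart in both replicates. The counterparts had peak numbers 1017, 835, 1861 and 665 in replicate 1, and 1930, 1455, 683 and 552 in replicate 2. The last of the 4 was thus the best of its cluster in all 3 lists. The second cluster, from 9544143 to 9547130, held 3 regions. Its first and second members overlap each other. Each of them overlapped 2 regions in each replicate, and the counterpart with the smallest peak number was the same for both. These 2 members had combined peak numbers 578 and 995. The third member of that cluster, at 9546889 to 9547130, had peak number 65. The last cluster of 3 lay on the right arm between 14347178 and 14356181. Its regions had combined peak numbers 249, 655 and 445, with peak numbers 317, 927 and 361 in replicate 1 and 241, 501 and 615 in replicate 2. Overlapping neighbours were rare on V, with 2 pairs, against 3 on IV, 7 on II, 7 on III, 11 on I and 13 on X.

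The next comparison asked where the members stood in the authors' order. Chromosome V had 1 of the first 25 combined regions, where X had 16, III had 4, II and IV had 2 each and I had none. Of the first 100 combined regions 7 lay on V (7%, 2.86 to 13.9), against 13.5% of the whole list, a share inside that interval. In replicate 1 it was 11 of the first 100 (5.62 to 18.8%) and in replicate 2 it was 7. Chromosome II had 10 of the first 100 combined regions and IV had 13. Over steps of 25% down the combined list its share was 11.9%, 13.3%, 14.05% and 14.5%. Peak numbers up to 839, the better 50% of the list, were held by 106 of the 226 members, or 46.9%, against 50.4% of the regions of all other chromosomes. This difference did not pass the test (odds ratio 0.868, 0.648 to 1.16; two-sided Fisher's exact test, adjusted p = 0.535). The longer replicate lists gave odds ratios of the same size, with narrower intervals, and the test passed in both. In replicate 1, 47.1% of the V regions were in the better 50% of the list, against 50.5% elsewhere (odds ratio 0.870, 0.772 to 0.980; Fisher's exact test, adjusted p = 0.0368). In replicate 2, 47.1% were, against 50.5% (odds ratio 0.872, 0.792 to 0.959; Fisher's exact test, adjusted p = 0.0101). Single chromosomes differed within this pooled value. In replicate 1 the share was 47.6% on IV, 48.4% on X, 49.2% on II, 53.1% on III and 54.5% on I. In replicate 2 it was 47.9% on IV, 48.5% on X, 51.2% on I, 51.3% on II and 53.9% on III. The low share of V was thus nearly matched on IV. The median peak number on V was the largest of the 6 chromosomes in each list, at 917.5 in the combined list, 4456.5 in replicate 1 and 6660.5 in replicate 2. The highest score of the combined list, 3.35, was shared by 145 members (64.2%), so the score does not order them. The lowest score on V was 1.51.

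The 10 best members were compact and found at nearly the same place in both samples. Of these, 7 lay in the middle part, 3 on the right arm and none on the left arm. All 10 had the highest score in the combined list and in both replicate lists. The first, at 9344125 to 9344455, had peak number 25 in the combined list, 25 in replicate 1 and 25 in replicate 2. The second, at 10897235 to 10897494, had 29, 33 and 28. The third, on the right arm at 14685627 to 14685886, had 53, 46 and 71. In these 3 regions the midpoints of the replicates lay 6.5, 2.5 and 6 bp apart, far less than the widths of 331, 260 and 260 bp.

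The next member, at 9546889 to 9547130, had combined peak number 65, with 47 in replicate 1 and 82 in replicate 2. The region at 10466632 to 10466822 had 73, 61 and 96, and its replicate midpoints lay 28 bp apart. On the right arm, 15002178 to 15002367 had 77, 55 and 113. Further out on that arm, 18967753 to 18967933 had 82, 70 and 137, and it stands in the thin stretch from 16 to 19 Mb. In these 4 regions the peak number was smaller in replicate 1 than in replicate 2. The remaining 3 lay in the middle part. The region at 11039628 to 11039844 had peak numbers 103, 118 and 109, with midpoints 42 bp apart. The region at 7776207 to 7776405 had 110, 100 and 144, and that at 12343629 to 12343830 had 112, 176 and 94. The order of these 10 thus differed between the replicates from the fifth place on, and peak numbers of lists of different length show ranks only.

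All of these 10 regions were narrower than the fixed width of the list. In the combined list 203 of the 226 members were exactly 490 bp wide, and 23 were narrower, from 122 to 331 bp with a median of 191 bp. None was wider. The share of members off the fixed width was 10.2% (6.56 to 14.9), beside 12.2% of all 1679 combined regions. It was 12.5% outside V, and the difference did not pass the test (odds ratio 0.791, 0.477 to 1.26; two-sided Fisher's exact test, adjusted p = 0.535). The narrow members ranked well, but this was not particular to V. Peak numbers up to 839 were held by 22 of the 23 regions off the fixed width on V and by 177 of the 182 elsewhere. On V, 16 of the first 23 members were narrow. The 23 narrow members had a median peak number of 119 and ranged from 25 to 963, all with the highest score. The best member of 490 bp had peak number 132 and was thirteenth on V. By position 12 of the narrow members lay in the middle part, 7 on the right and 4 on the left. The members of least width did not rank best among the narrow ones. The narrowest, at 5790978 to 5791099 with 122 bp, had combined peak number 785, with 1668 in replicate 1 and 406 in replicate 2. Its counterparts there had the usual widths of 464 and 470 bp. The region of 124 bp had combined peak number 566, and that of 151 bp had 963, the last of the narrow members. In the replicate lists only 10 of the 1324 (0.755%) and 10 of the 2082 (0.480%) V regions were off the fixed width. On the other chromosomes the share ran from 0.602% on II to 1.61% on X in replicate 1. In replicate 2 it ran from 0.787% on IV to 1.48% on III.

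The last comparison asked how the members were found in each sample. A counterpart overlapping by 1 bp or more was present in replicate 1 for 223 of the 226 members, or 98.7% (96.2 to 99.7), where the share over all combined regions was 99.4%. In replicate 2 it was present for 225, or 99.6% (97.6 to 100.0), beside 99.7% over all combined regions. The combined list was made from the same samples, so these shares are in part built in. With the stricter condition that the overlap cover 50% of both regions in both replicates, 207 members passed, or 91.6% (87.2 to 94.9), beside 91.7% of all combined regions. Against the other chromosomes the odds ratio was 0.981 (0.586 to 1.72; two-sided Fisher's exact test, adjusted p = 0.897), so a difference was not detected, and the interval allows one in either direction. More than 1 counterpart was overlapped by 36 members in replicate 1 and by 46 in replicate 2. These counts describe V alone and are not set against other chromosomes.

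A counterpart overlapping by 1 bp or more in both samples was present for 222 of 226 members (98.2%). Elsewhere it was present for 1442 of 1453 regions (99.2%), and the difference did not pass the test (Fisher's exact test, adjusted p = 0.231). The other 4 members lacked a counterpart in 1 of the samples. The regions at 152167 to 152656, 7416495 to 7416984 and 8785334 to 8785823 had none in replicate 1. They stood near the end of the combined list, with peak numbers 1507, 1678 and 1662, and with scores of 1.74, 1.51 and 1.54. In replicate 2 their counterparts had peak numbers 919, 930 and 1107. The fourth, at 10965556 to 10965736, was found in replicate 1 alone and stood much higher, with combined peak number 117 and replicate 1 peak number 82. Its replicate 1 counterpart, 10965411 to 10965874, carried the highest score of that list. The nearest replicate 2 region began at 10961526, 3415 bp away, and had peak number 10773. This replicate 1 region was also the best on V without a replicate 2 counterpart. The next on V had peak number 1305, at 14008363 to 14008826. In the other direction, the best V region of replicate 2 without a replicate 1 counterpart lay at 4134952 to 4135421. It had peak number 700 and the highest score of its list, and the nearest replicate 1 region was 1629 bp away. No combined region overlapped it, the closest being 3078 bp away.

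The 222 members with a counterpart in both samples lay at closely matching positions. The median distance between the replicate midpoints was 28 bp, with quartiles of 11 and 52.75 bp and a maximum of 255 bp. On the other chromosomes the median ranged from 20 to 25 bp. Within V it was 6.5 bp for the first 10 members, 12 bp for the narrow ones and 31 bp for those of 490 bp. Peak numbers matched less closely than positions. The counterparts had a median peak number of 840 in replicate 1 (25 to 7706) and 853 in replicate 2 (25 to 7960). The peak number was smaller in replicate 1 for 116 of them (52.3%). Across these 222 regions Spearman's rho was 0.53, and on the other chromosomes it ranged from 0.55 on II to 0.70 on X. The regions of a list share a library, neighbouring regions are not independent, and the combined list was made from the same samples, so these values are descriptions.

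A few members were ranked very differently by the replicates. The region at 5064892 to 5065381 had peak number 507 in replicate 1 and 7960 in replicate 2, with midpoints 27 bp apart. The opposite case, at 1471421 to 1471910, had 7706 in replicate 1 and 786 in replicate 2. Another, at 12869899 to 12870388, had 7267 and 880, although its replicate midpoints were 4 bp apart. Their combined peak numbers were 1435, 1574 and 1501, all near the end of the list. These 3 were chosen after their values were seen.

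**Figure D5:**
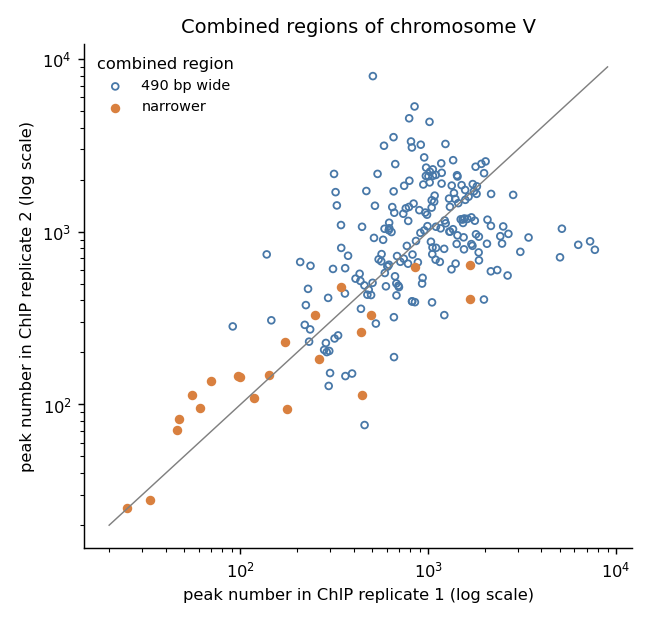
Peak number in ChIP replicate 1 (horizontal) and ChIP replicate 2 (vertical), both on log scales, for the 222 combined regions of V with a counterpart in both; filled points are regions narrower than 490 bp, and the line marks equal numbers. Most of the smallest numbers belong to narrow regions, although the narrowest member lies at 1668 and 406, and regions of 490 bp reach 7706 and 7960.

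Most replicate regions of V did not reach the combined list. Of the 1324 regions of replicate 1, 728 or 55.0% (52.3 to 57.7) overlapped a replicate 2 region, beside 59.1% of all nuclear regions of that list. In replicate 2 it was 761 of 2082, or 36.6% (34.5 to 38.7), beside 40.8%. Combined regions overlapped 255 of the replicate 1 regions on V, or 19.3% (17.2 to 21.5), beside 22.4% of the nuclear list. In replicate 2 they overlapped 267, or 12.8% (11.4 to 14.3), beside 15.6%. In each of these 4 shares V was the lowest of the 6 chromosomes, but its interval overlapped those of IV and X. On IV, 57.2% (54.5 to 59.9) of replicate 1 regions and 39.0% (36.9 to 41.2) of replicate 2 regions overlapped the other replicate. Combined regions overlapped 21.5% (19.3 to 23.8) and 14.2% (12.7 to 15.8) of them. The differences between chromosomes were not tested. The share was higher among regions with small peak numbers, on V and elsewhere. In the best 10% of replicate 1, 108 of 109 regions of V and 720 of 721 elsewhere overlapped replicate 2. In the last 10% it was 32.1% on V and 32.2% elsewhere. In the best 10% of replicate 2 the share was 92.9% on V (87.9 to 96.3) and 97.5% elsewhere (96.4 to 98.4), and in the last 10% it was 20.5% and 19.4%.

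The share of replicate regions found again was compared between the arms and the centre of V. In replicate 1, 60.2% of the regions in the middle part (55.9 to 64.5) and 51.6% of those in the outer parts (48.0 to 55.1) overlapped replicate 2. On chromosomes I to IV these shares were 64.5% and 57.6%. In replicate 2, 38.8% of the regions in the middle part of V (35.5 to 42.2) and 35.1% of those in its outer parts (32.4 to 37.8) overlapped replicate 1. The intervals on V overlapped in replicate 2, and on I to IV the shares were 46.2% and 39.6%. Combined regions overlapped 24.1% of the replicate 1 regions in the middle of V (20.5 to 28.0) and 16.1% of those in the outer parts (13.6 to 18.8). On I to IV they overlapped 25.4% and 22.7%. In replicate 2 the shares that combined regions overlapped were 15.4% and 11.1% on V, against 18.3% and 15.7% on I to IV. Replicate density was also lower on the arms of V in both lists. Between the arms the order was mixed. In replicate 1 the left arm was denser than the right (65.4 against 49.5 per Mb), but 50.0% against 53.6% overlapped replicate 2. In replicate 2 the left arm was denser too (95.1 against 84.1 per Mb), and 36.2% against 33.8% overlapped replicate 1. Neither these differences nor the part of density in them was tested.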

How the data were processed

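Regions were taken from 3 deposited lists, 1 for each of the 2 ChIP samples and 1 combined list. Their build is WormBase WS220, per the file headers, and the method field of the lines gives SPP via IDR, the irreproducible discovery rate. For the aligner, thresholds, versions and way of combining, nothing is given in the sources used here. The score is the authors' value per region, as deposited, on a scale the file headers do not name. Peak numbers were used as the order of each list. Positions are 1-based, parts and bins were assigned by midpoint, and a counterpart is the overlapping region with the smallest peak number.

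Shares were compared with two-sided Fisher's exact tests and densities with exact binomial tests given the lengths. Benjamini-Hochberg adjustment ran over 7 tests at a threshold of 0.05. An alternative's p was adjusted in place of the main one. Intervals of shares are Clopper-Pearson intervals. Python 3.11.15, numpy 2.4.6, pandas 2.3.3, scipy 1.17.1 and matplotlib 3.10.9 were used. The functions were checked on simulated data. The input samples were not analysed here.

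The members, the parts and the tests were chosen with earlier results of these data known. The rule for named regions takes the first 10 members, the 5 widest gaps, clusters of 3 or more, members without a counterpart, the narrowest and widest, and the best replicate regions without a counterpart. The widest member is not named, since 203 tie at 490 bp. Sequence was not used, and annotation only for the chromosome of nhr-237, for want of a genome of the same build.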

Additional observations from a re-analysis of the deposited data

How the results depend on the processing

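In both the middle and the outer parts, V stayed below the pooled density of chromosomes I to IV. This held, past the threshold, under every alternative run. These were the outer 50% as arms, the better 50% by peak number, regions within 5 kb merged and parts counted from base 1. They also took in either replicate alone and the full replicate lists. The middle share was less stable. Its odds ratio of 1.49 missed the threshold among the better 50% (1.44), after merging within 5 kb (1.38), in the full replicate 1 list (1.10) and with a single replicate (1.27 without replicate 1 and 1.29 without replicate 2). It passed with the middle 50% of the chromosome as centre (1.65) and in the full replicate 2 list (1.18); the cause was not tested. The left to right ratio passed only in the full replicate 1 list, at 1.32. The odds ratio for the better 50% by rank passed without replicate 1 (0.872) and without replicate 2 (0.870), which use the longer full lists. The odds ratio for counterparts, never past the threshold, turned from 0.981 to 1.01 without replicate 1 and to 1.06 among the better 50%, and was 0.948 without replicate 2. The share of members in clusters was 7.08% at a distance of 2 kb and 30.5% at 10 kb. Of 44 alternatives, 32 left direction and call as they were, or the value within its interval. The full replicate lists, and the single-replicate alternatives for the better 50% by rank, were added after seeing the data. No paired analysis was possible because the only samples numbered alike are ChIP and input, and the input was not analysed here. Without read counts, the depth behind each region sets a limit that was not measured.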
